A study of Saccharomyces cerevisiae with 12 samples.

Results

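The 10 genes described here encode amino acid permeases of budding yeast: AGP1, BAP2, BAP3, TAT1, TAT2, GNP1, MUP1, DIP5, GAP1 and HIP1. They were taken as a named list out of 6002 nuclear protein-coding genes and all 10 were found at their positions in the RefSeq R64 annotation, the sequence of the sacCer3 build. Accessible chromatin was mapped by ATAC-seq (a transposase inserts adapters where DNA is exposed) in Saccharomyces cerevisiae BY4741, a haploid laboratory strain that needs histidine, leucine, methionine and uracil. All strains carried a synthetic human HPRT1 locus (synHPRT1) or its reversed counterpart (synHPRT1R), in 4 groups of 3 libraries. The construct was kept as a yeast artificial chromosome (YAC) or had been integrated into chromosome XI. SC-Leu, a synthetic medium without leucine, was used for YAC strains and the rich medium YPD for integrated ones, so format and medium cannot be told apart. Growth was at 30 °C, with harvest at an OD of about 0.6 some 6 h after dilution. The labels do not say whether replicates came from separate isolates or cultures, so p-values measure only the spread between these libraries. No strain without a construct is among these libraries.

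Amino acid permeases are plasma membrane proteins that carry amino acids into the cell with protons. Many of their genes answer to amino acids outside the cell: the SPS sensor (Ssy1, Ptr3 and Ssy5) releases the transcription factors Stp1 and Stp2, which then activate genes such as AGP1, BAP2, BAP3, TAT1 and GNP1. GAP1 answers instead mainly to the quality of the nitrogen source through GATA factors, and is kept low on rich nitrogen.

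The values are peaks called by the authors, with a summit and a fold enrichment over the local background for each. The promoter window ran from -500 to 100 bp around the gene start, which is the start of the coding region for these genes. A library counted as open at a gene if it had a summit inside that window. Summits up to 1000 bp upstream were also recorded. Positions are given in bp from the gene start, with negative numbers upstream. Each library had 982 to 1343 peaks (913 to 1303 of them nuclear), and 13.0% to 18.8% of all promoters were open. Read totals are not in the lists. The number of reads stacked at a summit (pileup), recovered from the authors' fold enrichment and p-value, had a median of 20 to 26 per library at nuclear peaks, over a library-wide background of 4.97 to 6.93 reads. As a check of the strain, 4 of 5 genes specific to mating type a had an open promoter in at least 1 library. These were STE2 in 11 of 12 libraries, MFA2 and STE6 in 5 each and MFA1 in 3, while BAR1 was open in 0. Of 3 genes specific to type alpha, 1 was open, MF(ALPHA)2 in 1 library, with a summit within 1000 bp upstream in 6. Over all genes, 37.0% had an open promoter in at least 1 library, so these few genes are a weak check.

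Most of the permease genes had accessible DNA upstream in nearly every library, but it lay far from the gene start. Within 1000 bp upstream, 9 of the 10 genes had a summit in at least 8 of the 12 libraries, and AGP1, BAP3, TAT1 and GNP1 had one in all 12. HIP1 had none in any library. The median over the 10 genes was 11 libraries, against 0 for all genes and 1 for the 1241 genes whose upstream gap was at least as long as the shortest of the permease genes. A summit in all 12 libraries was found for 4 of 10 permease genes, 8.28% of all genes and 17.1% of those with such a gap. At least 8 libraries had one at 9 of 10 permease genes, 18.7% of all genes and 33.2% of those with such a gap. That limit of 8 was set after the permease values were seen.

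Inside the 500 bp promoter, 8 of the 10 genes were open in at least 1 library, against 37.0% of all genes, and the median was 7 libraries against 0. At least 8 libraries were open at 5 of 10 permease genes, 10.9% of all genes and 13.7% of those with a long gap. No permease gene was open in all 12, as were 3.03% of all genes, a share too small to be told from 0 in 10 genes. The most was 9 libraries, for AGP1, GNP1 and MUP1. BAP2 and TAT2 were open in 8, BAP3 and TAT1 in 6, DIP5 in 4, and GAP1 and HIP1 in 0. Of 120 gene and library pairs, 59 had a summit in the promoter and another 38 had one only between -1000 and -500. In 27 of those 38 the peak itself still reached into the promoter, and the other 11 were all at GAP1. Summits within 50 bp of the -500 edge made up 33 of the 97 pairs, so the count of open promoters depended on where that edge was set.

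**Figure D1:**
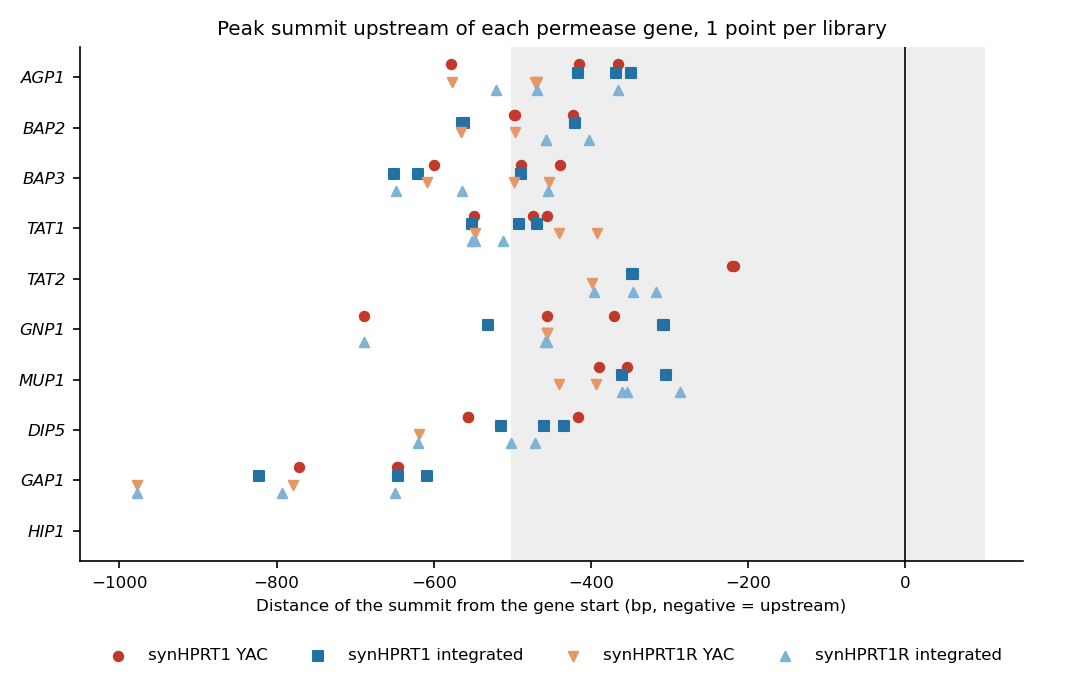
Position of the strongest peak summit upstream of each permease gene, in bp from the gene start (x axis), with 1 point per library and the 4 groups by colour and shape. The grey band is the promoter from -500 to 100. Summits of AGP1, BAP2, BAP3, TAT1, GNP1 and DIP5 fall on both sides of its -500 edge. Those of TAT2 and MUP1 lie inside the band, those of GAP1 outside it, and HIP1 has none.

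All 10 genes had long upstream intergenic gaps. The gap to the next annotated gene, leaving out antisense RNAs, ranged from 745 bp at TAT2 to 1659 bp at GAP1, with a median of 960 bp against 424 bp for all genes. A gap of at least 745 bp was found upstream of 20.7% of all genes. Median summit positions of the 9 genes with peaks ran from -772 for GAP1 to -346 for TAT2, with a median of -497. Among all 1123 genes with a summit within 1000 bp in at least 8 libraries the median was -414, and among the 412 of them with a gap of at least 745 bp it was -501. The limit of 8 libraries was set after the permease values were seen.

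**Figure D2:**
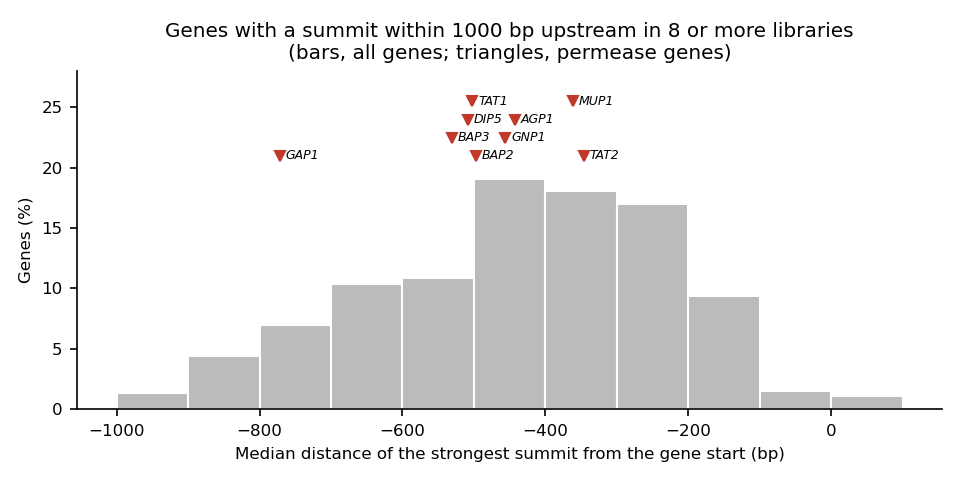
Median distance of the strongest summit from the gene start, for genes with a summit within 1000 bp upstream in at least 8 libraries: bars give the percentage of all such genes per 100 bp, and triangles mark 9 permease genes (their height has no meaning). The triangles lie between -772 and -346, and 4 of 9 (44.4%) lie beyond -500, against 33.9% of all such genes and 50% of those with a gap of at least 745 bp.

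AGP1 and GNP1 take up many amino acids. AGP1 (chromosome III, 76018 to 77919, minus strand) encodes a low-affinity permease of broad range, and is transcribed away from KCC4, a bud-neck kinase gene, across 1242 bp. Its summits were at -415, -578 and -366 in synHPRT1 YAC libraries and at -416, -349 and -368 in synHPRT1 integrated ones. In synHPRT1R YAC libraries they were at -471, -577 and -469, and in synHPRT1R integrated ones at -468, -366 and -521. The summits fell at 6 places, counting summits up to 10 bp apart as 1 place, and each group used several of them. All 12 peaks covered the stretch from -630 to -395 (chromosome III, 78314 to 78549). None of these 12 summits lay in the promoter of KCC4. Further summits at -1377, -1295 and -1246, with a fold enrichment of 2.34 to 2.93, were called in 1 library each, near the start of KCC4.

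The fold enrichment at AGP1, by the authors' values, was 4.15, 2.90 and 4.98 in synHPRT1 YAC libraries and 4.22, 3.96 and 3.42 in synHPRT1R YAC libraries. Integrated libraries had 5.46, 5.15 and 4.98 with synHPRT1 and 7.01, 7.37 and 4.77 with synHPRT1R. Within its own library's nuclear peaks, the AGP1 peak ranked at percentiles 32.1 to 91.1 in YAC and 81.5 to 98.8 in integrated libraries. These ranges overlapped. Ranks come from lists of different lengths and show no change by themselves. The pileup at the AGP1 summit was 20 to 44 reads.

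GNP1 (chromosome IV, 1466453 to 1468444, minus strand) encodes a high-affinity glutamine permease that also carries other neutral amino acids. It faces SMT3, the gene of the SUMO protein, across 955 bp. Summits were at -370, -456 and -689 in synHPRT1 YAC libraries and at -308, -531 and -307 in synHPRT1 integrated ones. In synHPRT1R YAC libraries all 3 were at -456, and in synHPRT1R integrated ones they were at -459, -456 and -689. In all, 5 libraries from 3 groups had their summit at the very same base and a sixth lay 3 bp away. All 12 GNP1 peaks covered a stretch of 493 bp (chromosome IV, 1468684 to 1469176). Of the 12 summits, 9 also lay in the promoter of SMT3 and 3 were nearer to the SMT3 start, so the signal cannot be assigned to GNP1 alone.

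GNP1 had the highest median rank of the 10 genes, percentile 93.3, and ranged only from 82.9 to 98.0. Its fold enrichment was 4.08 to 6.16 in YAC and 4.81 to 6.39 in integrated libraries. The ranges of both formats overlapped. GNP1 peaks were 551 to 834 bp wide, with a median of 615 bp.

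BAP2 and BAP3 encode permeases for the branched-chain amino acids leucine, isoleucine and valine. BAP3 (chromosome IV, 548762 to 550576, minus strand) faces HEM12, a heme biosynthesis gene, across 1283 bp. Its summits were at -489, -599 and -439 in synHPRT1 YAC libraries and at -620, -651 and -489 in synHPRT1 integrated ones. With synHPRT1R, YAC libraries had them at -609, -453 and -498, and in synHPRT1R integrated ones at -455, -564 and -648. Each group had summits on both sides of the -500 edge. BAP3 had the widest peaks of the 10 genes by median, 794 bp with a range of 643 to 860 bp, and all 12 covered the 560 bp from -838 to -279 (chromosome IV, 550855 to 551414). None of its summits lay in the promoter of HEM12, although 2 were nearer to the HEM12 start. Fold enrichment was 3.91 to 4.83 in YAC and 4.55 to 5.72 in integrated libraries, at percentiles 77.8 to 96.6 overall.

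BAP2 (chromosome II, 373861 to 375690, minus strand) lies next to TAT1 in a tandem pair, 883 bp from the end of TAT1. Its summits were at -497, -498 and -423 in synHPRT1 YAC libraries and at -420, -561 and -564 in synHPRT1 integrated ones. In synHPRT1R YAC libraries they were at -497 and -565, with no peak in replicate 3, and in synHPRT1R integrated ones at -457, -457 and -402. Of the 5 places used, that at -498 to -497 held 3 summits just inside the promoter, and that at -565 to -561 held 3 outside it. BAP2 peaks were weaker than those of BAP3 within the same lists. Their percentiles were 8.70 to 45.0 in YAC and 22.5 to 73.1 in integrated libraries, and their fold enrichment was 2.46 to 4.26.

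TAT1 and TAT2 encode permeases for tyrosine and tryptophan, TAT2 being the high-affinity tryptophan permease. TAT1 (chromosome II, 376574 to 378433, minus strand) lies downstream of ALG14, a glycosylation gene in the same direction, and an annotated antisense RNA, TBRT, overlaps it. Summits were at -474, -456 and -549 in synHPRT1 YAC libraries and at -551, -469 and -491 in synHPRT1 integrated ones. With synHPRT1R, YAC libraries had them at -392, -441 and -548, and in synHPRT1R integrated ones at -548, -512 and -551. The place from -551 to -548 was shared by 5 libraries, with at least 1 from each group. TAT1 peaks were narrow, 151 to 346 bp, and all 12 covered 104 bp (chromosome II, 378885 to 378988). Fold enrichment was 2.93 to 4.22 in YAC and 3.43 to 5.42 in integrated libraries.

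TAT2 (chromosome XV, 286172 to 287950, plus strand) faces DIS3, an exosome subunit gene, across 745 bp, the shortest gap of the 10. It had a peak in 8 libraries. Its summits were at -218 and -220 in synHPRT1 YAC replicates 2 and 3, at -346 and -348 in synHPRT1 integrated replicates 1 and 3, and at -398 in synHPRT1R YAC replicate 1. In synHPRT1R integrated libraries they were at -317, -346 and -396. All 8 lay inside the promoter, and TAT2 summits nearest the gene start came from synHPRT1 YAC libraries. Of the 8, 6 also lay in the promoter of DIS3. A second, weaker summit at -848 was called in synHPRT1R integrated replicate 1. Pileups at TAT2 were 19 to 30 reads and its median percentile was 46.9.

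MUP1, DIP5 and HIP1 have narrower substrates. MUP1 (chromosome VII, 599417 to 601141, plus strand) encodes the high-affinity methionine permease and lies 795 bp downstream of YGR054W. Its summits were at -390 and -354 in synHPRT1 YAC replicates 1 and 3, and at -361 and -305 in synHPRT1 integrated replicates 1 and 3. In synHPRT1R YAC replicates 2 and 3 they were at -393 and -441, and in synHPRT1R integrated libraries at -354, -287 and -361. MUP1 thus had a peak in 9 libraries, and all 9 summits lay inside the promoter. The 9 peaks shared 237 bp (chromosome VII, 598928 to 599164). Its fold enrichment ran from 2.64 in synHPRT1 YAC replicate 3 to 5.56 in synHPRT1 integrated replicate 3. Its percentiles within a library ran from 10.7 to 93.5, the widest span of the 9 genes with peaks.

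DIP5 (chromosome XVI, 41043 to 42869, plus strand) encodes the permease for glutamate and aspartate and lies 965 bp downstream of DIM1, an rRNA methyltransferase gene. Summits were at -557, -557 and -416 in synHPRT1 YAC libraries and at -515, -434 and -460 in synHPRT1 integrated ones. In synHPRT1R YAC libraries only replicate 2 had one, at -619, and in synHPRT1R integrated libraries they were at -471, -620 and -502. With the 1000 bp window DIP5 was open in 4 of 6 libraries with the YAC and in all 6 with the integrated construct.

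The fold enrichment at DIP5 was 3.70, 3.15 and 3.66 in synHPRT1 YAC libraries and 3.96 in the single synHPRT1R YAC library with a peak. It was 5.07, 4.43 and 4.98 in synHPRT1 integrated and 5.92, 5.53 and 6.22 in synHPRT1R integrated libraries. The corresponding percentiles within each library were 47.0 to 65.2 in YAC and 81.5 to 97.7 in integrated libraries. DIP5 peaks thus ranked lower in the 4 YAC libraries where they were called than in any integrated library. The share of all genes whose ranks separated in this way is not given here. As these are ranks in lists of different lengths, they are given as a description only.

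HIP1 (chromosome VII, 880420 to 882231, plus strand) encodes the high-affinity histidine permease. No summit lay within 1000 bp upstream in any of the 12 libraries, although its gap of 1604 bp, to a tRNA gene, was the second longest. A single summit was called inside the coding region, at 1402, in synHPRT1 YAC replicate 1. Peak lists hold only signal above the caller's threshold, so weaker accessibility at HIP1 was not measured.

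GAP1 (chromosome XI, 515063 to 516871, plus strand) encodes the general amino acid permease and lies on the chromosome that carries the construct in integrated strains. Where on it the construct sits is not known from these sources. None of its peaks reached the promoter. Summits were at -772, -645 and -647 in synHPRT1 YAC libraries and at -608, -822 and -646 in synHPRT1 integrated ones. YAC libraries with synHPRT1R had them at -779 and -977 in replicates 2 and 3, and in synHPRT1R integrated ones at -649, -793 and -978. The place from -649 to -645 was used by 4 libraries from 3 groups. GAP1 was the only gene with peaks whose peaks shared no base across all libraries. These were also the weakest peaks of the 9 genes by median percentile, 26.2, with a fold enrichment of 2.35 to 4.15 and pileups of 16 to 30 reads.

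**Figure D3:**
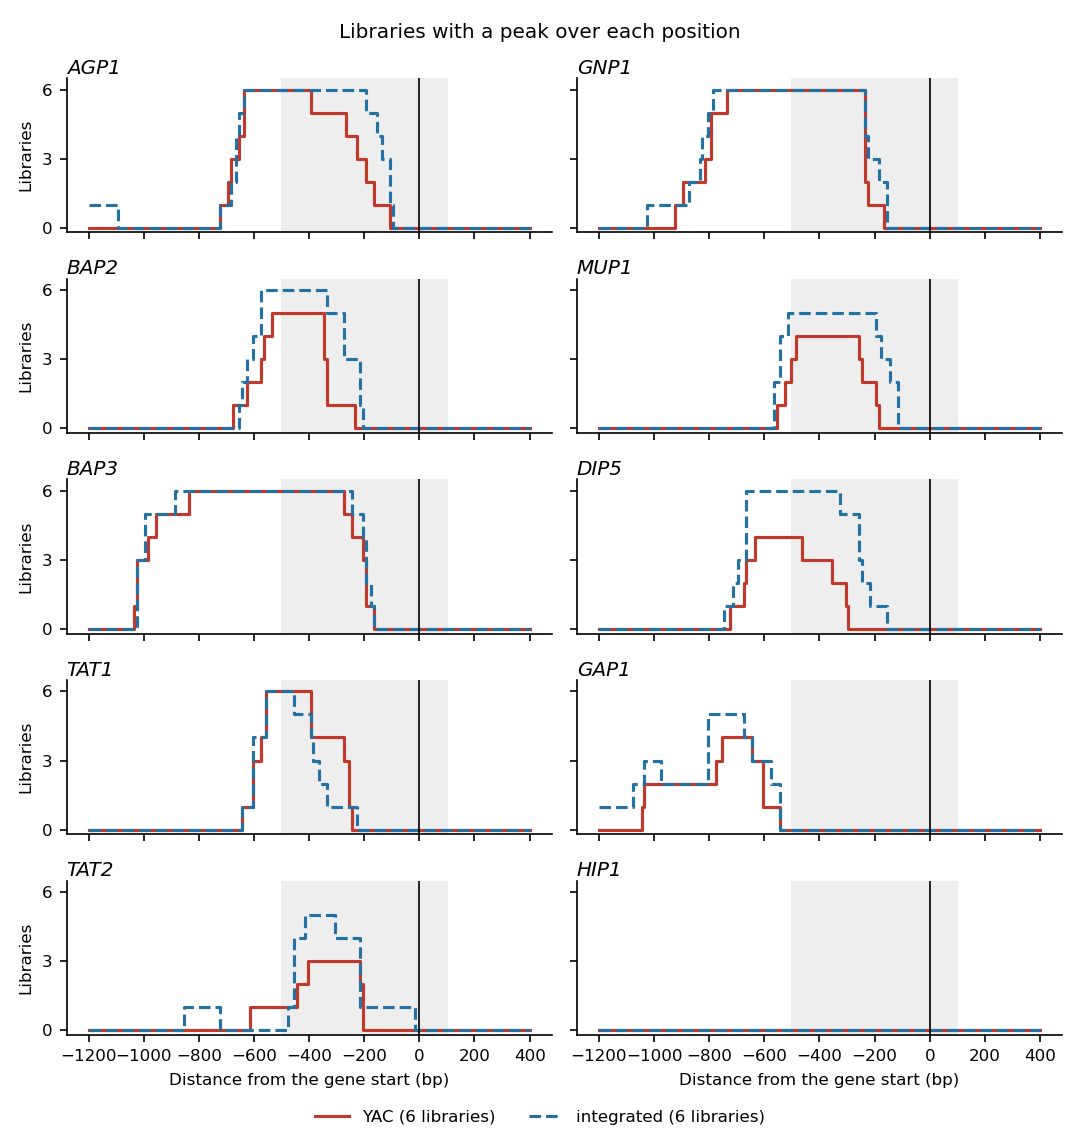
Number of libraries with a peak over each position from -1200 to 400 bp around the gene start, for 6 YAC (solid red) and 6 integrated (dashed blue) libraries; the grey band is the promoter. AGP1, BAP3, TAT1 and GNP1 reach 6 of 6 libraries in both formats, DIP5 reaches 4 YAC and 6 integrated libraries, and no permease gene has a peak over its start.

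**Figure D4:**
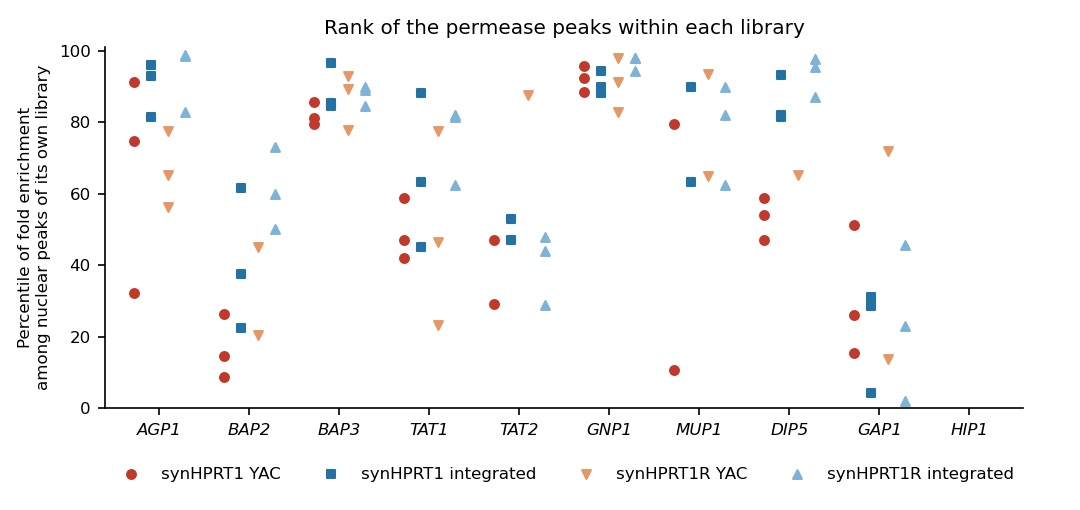
Percentile of each permease peak's fold enrichment among the nuclear peaks of its own library (y axis), 1 point per library with a peak, by group. GNP1 lies at 82.9 to 98.0 and BAP3 at 77.8 to 96.6 in all 12 libraries, whereas GAP1 lies at 1.88 to 71.9 in 11.

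The first comparison between groups asked whether the permease promoters were open equally often in both formats, each with its own medium. Counted in the 500 bp promoter, 29 of 60 gene and library pairs were open in YAC and 30 of 60 in integrated libraries. Per library, 4.83 ± 0.983 permease promoters were open with the YAC and 5.00 ± 1.79 with the integrated construct (mean ± SD, n = 6 each). By group it was 5.33 ± 1.15 in synHPRT1 YAC, 5.00 ± 2.00 in synHPRT1 integrated, 4.33 ± 0.577 in synHPRT1R YAC and 5.00 ± 2.00 in synHPRT1R integrated libraries (n = 3 each). The difference was smaller than the spread between replicates. Over all genes, 14.3% ± 0.688 of promoters were open with the YAC and 17% ± 2.02 with the integrated construct (n = 6 each).

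Gene by gene, BAP3 and TAT1 were each open in 4 YAC and 2 integrated libraries, and GNP1 in 5 and 4. TAT2 was open in 3 YAC and 5 integrated libraries, DIP5 in 1 and 3, and AGP1 and MUP1 each in 4 and 5. BAP2 had 4 in both. None of these differences passed (Fisher's exact test over 2040 genes with Benjamini-Hochberg adjustment, adjusted p = 1 for each of the 8 genes, smallest unadjusted p = 0.545). Of all genes tested, 0% passed an adjusted p of 0.05 and 0.539% had an unadjusted p under 0.05, that is 11 genes, none of them a permease gene of this list. In this design 89 genes would have to split 6 against 0 for any to pass, so the lack of calls does not show that the promoters were alike.

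With summits up to 1000 bp upstream, 45 of 60 pairs were open in YAC and 52 of 60 in integrated libraries. The number per library was 7.50 ± 1.22 and 8.67 ± 0.816 (n = 6 each), and over all genes the share was 21.2% ± 0.727 and 24.7% ± 2.39. Of the 5 permease genes open in some but not all libraries, all 5 were open in more integrated libraries: BAP2 in 5 YAC and 6 integrated, TAT2 in 3 and 5, MUP1 in 4 and 5, DIP5 in 4 and 6, and GAP1 in 5 and 6. Among all 2125 genes tested, 58.4% were open in more integrated libraries. None of the 5 passed (adjusted p = 1 each, Fisher's exact test), and of all genes 0% passed and 0.753% had an unadjusted p under 0.05.

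**Figure D5:**
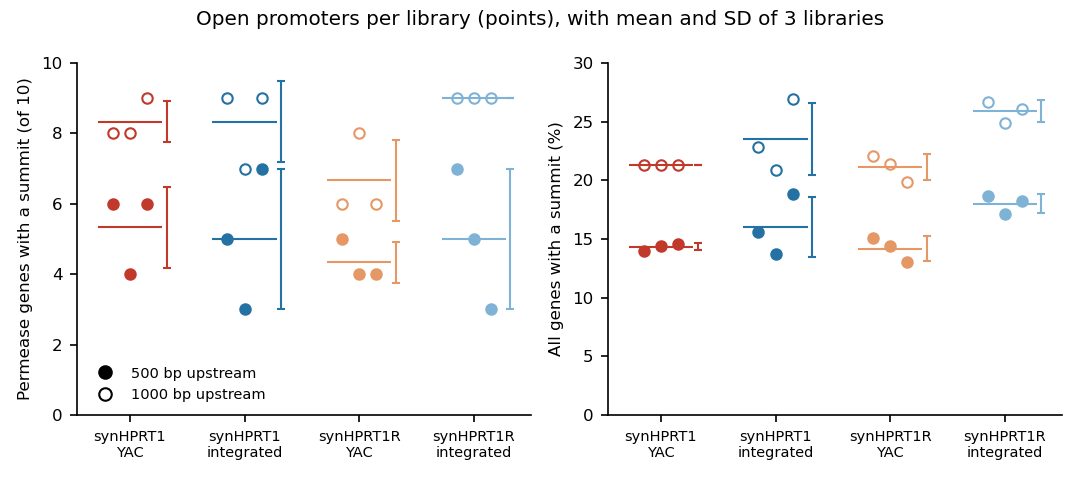
Number of the 10 permease genes (left) and percentage of all genes (right) with a summit up to 500 bp (filled) or 1000 bp (open circles) upstream, 1 point per library; lines are means and bars SD of 3 libraries. The 500 bp counts run from 3 to 7 and the 1000 bp counts from 6 to 9.

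Keeping only strong peaks, with a -log10 q of at least 10 by the authors' values and a summit up to 1000 bp upstream, moved the counts further apart. This setting was chosen after seeing the data. The number of permease genes was then 1.67 ± 1.21 per YAC and 4.67 ± 1.21 per integrated library (n = 6 each), while 2.83% ± 1.22 and 5.93% ± 1.77 of all genes had such a peak. AGP1 had a strong peak in 1 YAC and 6 integrated libraries and DIP5 in 0 and 5 (each unadjusted p = 0.0152, adjusted p = 0.552, Fisher's exact test). By the same exact test BAP3, with 2 and 6, had an unadjusted p of 0.0606 and an adjusted p of 0.899. TAT1 had one in 0 and 2, MUP1 in 1 and 3, GNP1 in 5 and 6 and TAT2 in 1 and 0, and none passed. BAP2, GAP1 and HIP1 had no strong peak.

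With the same -log10 q threshold inside the 500 bp promoter, YAC minus integrated was -66.7 percentage points of libraries at AGP1 (unadjusted p = 0.0801, Fisher's exact test) and -33.3 at DIP5 (unadjusted p = 0.455, Fisher's exact test), each with an adjusted p of 1. Neither unadjusted p was then under 0.05. With 1000 bp upstream at that threshold, 2 of the 7 permease genes tested had an unadjusted p under 0.05 (Fisher's exact test). Over all 801 genes tested with 1000 bp, 2.75% had such a p with more integrated libraries, and 78.0% had a strong peak in more integrated than YAC libraries. Beside these counts, nuclear peaks numbered 996 ± 44.9 per YAC and 1179 ± 125 per integrated library (n = 6 each), and the library-wide background was 5.85 ± 0.591 and 5.72 ± 0.596 reads. The part of peak number in the result was not tested.

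Where along the gap the summit lay could be compared for genes with a summit in all 12 libraries. No permease gene qualified with the 500 bp promoter. With 1000 bp upstream, a window chosen for this test after seeing the data, 4 did. The mean AGP1 summit was at -479 ± 85.4 in YAC and -415 ± 67.8 in integrated libraries, and that of BAP3 at -514 ± 72.8 and -571 ± 83.6 (n = 6 each). For TAT1 it was -477 ± 62.0 and -520.3 ± 35.2, and for GNP1 -480.5 ± 108 and -458 ± 144 (n = 6 each). The unadjusted p was 0.175, 0.240, 0.190 and 0.900 in that order, with adjusted p of 0.959, 0.959, 0.959 and 1 (exact two-sided permutation test within constructs over 497 genes, whose smallest p is 0.005). The shifts at AGP1, BAP3 and GNP1 were smaller than the SD within either format, that at TAT1 was larger than the SD of integrated libraries only, and AGP1 and BAP3 shifted in opposite directions. Of all 497 genes, 0% passed and 5.03% had an unadjusted p under 0.05.

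The second comparison set synHPRT1R against synHPRT1 strains, each grown in both media. The number of open permease promoters was 4.67 ± 1.37 with synHPRT1R and 5.17 ± 1.47 with synHPRT1 (n = 6 each), a difference smaller than the spread. TAT1 was open in 2 synHPRT1R and 4 synHPRT1 libraries, DIP5 in 1 and 3, and AGP1 in 4 and 5. GNP1 and MUP1 were open in 5 and 4, and BAP2, BAP3 and TAT2 were equal. None passed (adjusted p = 1 each, Fisher's exact test), and of 2040 genes 0% passed and 0.049% had an unadjusted p under 0.05. With 1000 bp upstream the counts were 7.83 ± 1.47 and 8.33 ± 0.816 (n = 6 each), no permease gene passed, and of 2125 genes 0% passed and 0.188% had an unadjusted p under 0.05.

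No gene matched a permease gene's pattern over the 12 libraries in 5 of the 8 cases with an open 500 bp promoter. Leaving out genes that share its summits, the gene open and closed in the same 12 libraries was RPN4 for BAP2, TDA3 for GNP1 and MDM38 for DIP5. These matches are between patterns set in part by the -500 edge.

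Among 11 other plasma membrane permeases of amino acids and small peptides, 6 had a summit in the 500 bp promoter in at least 1 library and 8 did up to 1000 bp upstream. Over all genes the shares were 37.0% and 43.7%, and 41.7% and 56.9% among genes with an upstream gap of at least 745 bp. The following were named after their values were seen. PTR2, the di- and tripeptide permease gene, had a summit in all 12 libraries at a median of -733 and in none within 500 bp. PUT4, the proline permease gene, had one in all 12 at a median of -541, of which 4 were in the promoter. ALP1 and LYP1, genes of basic amino acid permeases that point away from each other with BSC4 between them, each had one in 11 libraries, at medians of -472 and -417, which are the same base. SAM3 went the other way, with a summit in the 500 bp promoter in 9 libraries and a median of -283. CAN1, the arginine permease gene, had none in any library, like AGP3, MMP1 and HIP1.

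The regulators of these permeases are given by their counts. Of the 7 genes of the SPS sensor and its factors, 2 had an open promoter in at least 1 library: PTR3, a sensor component, in 10 and STP1 in 6. The PTR3 summits had a median of -165, in a gap of 229 bp to SUP6. STP1 lies 299 bp from MRPL28, and its strongest summits up to 1000 bp upstream had a median of -896. These signals cannot be assigned to PTR3 or STP1 alone. SSY1, SSY5, STP2, DAL81 and GRR1 had no summit up to 1000 bp upstream. Of 7 transcription regulators of nitrogen and amino acid genes, 2 had an open promoter, GAT1 in 11 libraries and GLN3 in 2. Of 6 genes for permease folding and turnover, 2 did, BUL1 in 2 libraries and BUL2 in 1. Over all genes, 37.0% had an open promoter in at least 1 library. In the 500 bp promoter no gene of these 4 lists differed by 4 or more libraries between formats or constructs, and 0 had an unadjusted p under 0.05 between formats (Fisher's exact test). With 1000 bp upstream, RSP5, the ubiquitin ligase gene, had a summit in 0 YAC and 4 integrated libraries. The median was -701 in a gap of 1125 bp to DSE1, nearer to DSE1, so the signal cannot be assigned to RSP5 alone. RSP5 did not pass in the test over 2125 genes above, and was named after its values were seen. The share of all genes with such a difference is not given here.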

How the data were processed

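Each of 12 ATAC-seq libraries has 1 deposited MACS2 peak list, and no list is pooled. Per the submitters' processing notes the tools were MACS2 2.1.0, Bowtie2 2.2.9, deepTools 3.5.0, SAMtools 1.9 and bcl2fastq 2.20, with the sacCer3 build. For calling options, read-end shifts and duplicate filters the sources used here give nothing. Deposited values per peak were the fold enrichment over local background (a ratio), and the -log10 of the p-value and q-value. Percentiles were taken inside each list. The thresholds on fold enrichment and -log10 q were the same for all 12 lists, and counts past them were compared between lists. Those counts were not adjusted for read totals, which the lists do not hold. Fold enrichment was also set side by side between libraries, without a test. Pileups were recovered under the caller's Poisson model for 99.9% of 13746 peaks (within 0.01 of the deposited -log10 p). Intervals on read counts are not given.

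Strand came from systematic gene names. All promoters were open in 15.6% of cases, against 5.16% and 4.88% after a shift of 3 kb either way. Genes open in 1 to 11 libraries were tested with Fisher's exact test (scipy 1.17.1) and Benjamini-Hochberg adjustment. The test was first tried on simulated data. Summit positions used an exact permutation test. No 2 libraries were duplicates: at least 47.1% of promoters open in either of a pair were not open in both. The members, lists and tests were chosen with earlier results of these data known. All 10 permease genes, their upstream neighbours, list genes differing by 4 or more libraries and genes with an identical pattern were named. No promoter sequence was used here.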

Additional observations from a re-analysis of the deposited data

How the results depend on the processing

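Under 8 alternative settings (windows of 300 or 1000 bp upstream, any base of a peak, a fold enrichment of at least 3, a -log10 q of at least 10, both thresholds with 1000 bp upstream, and the replicate block), 0 genes passed an adjusted p of 0.05 in either comparison, as also when leaving out each library. With so few libraries, a call needed many genes to split completely at once, so 0 calls do not show that the promoters were alike. The number of genes at an unadjusted p under 0.05 was 2 for formats and 0 for constructs with the replicate block (exact McNemar test), 22 and 3 at 1000 bp with a -log10 q of at least 10, and 13 to 26 and 2 to 13 when leaving out 1 library. For constructs it was 2 with 300 bp, and 4 each with 1000 bp and with any base of a peak. The difference in open permease genes per library, YAC minus integrated, was -0.167 and stayed so with the replicate block. It ranged from -0.567 to 0.233 when leaving out 1 library. It was 0.167 with 300 bp, -0.833 with the fold threshold, -1 with any base of a peak, -1.17 with 1000 bp and -1.5 with the -log10 q threshold, so its sign and size depended on the setting. All of these were smaller than 1.55, the SD of the 500 bp count within groups, pooled over the 4 groups and used for every setting. Over all 12 libraries the SD of that count was 1.38, less than the size of the -1.5 difference. With any base of a peak the SD was 1.03 in YAC and 0.816 in integrated libraries, and with 1000 bp it was 1.22 and 0.816. Both of these differences were thus larger than the SD of integrated libraries and smaller than that of YAC libraries. The difference was -1.83 and -3.00, beyond the SD of 1.55, at 1000 bp with the fold and the -log10 q threshold, both chosen after seeing the data. For synHPRT1R minus synHPRT1 it was -0.500, from -0.967 to -0.133 when leaving out 1 library, and from -0.5 to 0.333 over the other settings, the only one above 0 being 1000 bp with the -log10 q threshold.

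Reversed directions, none of them past the threshold, were as follows, in percentage points of libraries. For YAC minus integrated at a -log10 q of at least 10, BAP3 and TAT1 had -16.7 and TAT2 16.7. With 1000 bp as well, BAP3 had -66.7, TAT1 -33.3, TAT2 16.7 and GNP1 -16.7. TAT1 had -16.7 at 1000 bp with the fold threshold, and TAT2 33.3 at 300 bp. For synHPRT1R minus synHPRT1, AGP1 had 16.7 at 1000 bp with the fold threshold, and GNP1 -16.7 and DIP5 16.7 with the -log10 q threshold. The shift of the GNP1 summit ranged from -68.3 to 19.5 bp when leaving out 1 library. The cause was not tested. The summit position test passed 0 genes under 4 alternatives and when leaving out each library. Open and closed calls of libraries with the same replicate number did not deviate together over promoters (correlations from -0.0553 to 0.0208 over 12 pairs, 0 above 0.1). At least 47.1% of promoters open in either of 2 libraries were not open in both. Calls that vary so much cannot decide whether libraries with the same number were handled together.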
